A study of Mus musculus with 3 samples.

Results

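The 9 genes Erg, Fli1, Ets1, Foxf2, Foxq1, Foxc1, Tal1, Ppard and Klf2 encode transcription factors that are active in endothelial cells, the cells lining blood vessels. They were given as a list of symbols, drawn up with earlier results of these data known, and all 9 were found among the 29905 gene symbols to which the deposited transcript rows could be assigned. Each had at least 50 normalized counts in every library. Brain vessels isolated from whole brains were sequenced as polyadenylated RNA in 3 libraries, each a pool of vessels from 3 male mice aged 3 months. The libraries were C57BL6 WT, C57BL6-BALB/c WT and Cx30-/-, in which Connexin 30 (Cx30, gene Gjb6), a gap junction protein of astrocytes, is deleted in every cell of the body. The label of the Cx30-/- library gives a C57BL6 background, while the methods of the study give a C57BL6/Balbc background for it. With 1 library per group there is no spread between replicates, and pool, preparation, background and genotype cannot be told apart.

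Deposited counts summed to between 50375426 and 60725557 per library over all transcript rows, where a read on a shared exon counts for each row. The library totals behind the deposited fractions were lower, from 20654144 to 24830975. Gjb6 had 2899 counts in C57BL6 WT, 2246 in C57BL6-BALB/c WT and 96 in Cx30-/- vessels, in the direction of the labels. All 18 genes of an endothelial marker list were read in every library, among them Cldn5 (the main claudin of brain endothelial tight junctions) at 25826, 12122 and 29047 normalized counts in C57BL6 WT, C57BL6-BALB/c WT and Cx30-/- vessels. Normalized counts are counts divided by a median-of-ratios size factor of the library. Intervals are exact 95% intervals that cover the sampling of reads alone, not mice or preparations.

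Endothelial identity is held by combinations of factors rather than by a master gene. ETS factors (Erg, Fli1, Ets1) bind the core GGAA in the regulatory regions of most endothelial genes, often beside forkhead factors (Foxc1, Foxf2, Foxq1). Tal1 works in a complex with Lmo2, Ldb1 and Gata factors in endothelial and blood cells. Klf2 is switched on by laminar blood flow through the Mef2 factors, and Ppard is a nuclear receptor that binds fatty acids and pairs with Rxr receptors.

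All 9 genes followed the same order of libraries, with the highest level in Cx30-/- vessels, a lower one in C57BL6 WT and the lowest in C57BL6-BALB/c WT. That order was kept under each of the size factors of the whole libraries, but not when the libraries were scaled on the endothelial markers, where 7 of 9 were higher in Cx30-/- than in C57BL6 WT and 6 of 9 higher than in C57BL6-BALB/c WT. With the median-of-ratios size factors, the background was all genes with at least 50 normalized counts in 1 library of each comparison. Of these, 27.8% showed the order of the 9 genes and 37.1% were higher in Cx30-/- than in both WT libraries. The shares under the marker scaling are not given here. The median log2 ratio of the 9 genes was 0.43 relative to C57BL6 WT (range 0.21 to 0.53) and 1.19 relative to C57BL6-BALB/c WT (0.47 to 1.87), where the median of all genes lay at 0.00 in both. The larger distance was to the C57BL6-BALB/c WT library, and C57BL6-BALB/c WT was itself below C57BL6 WT for all 9, with a median log2 ratio of -0.69.

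**Figure D1:**
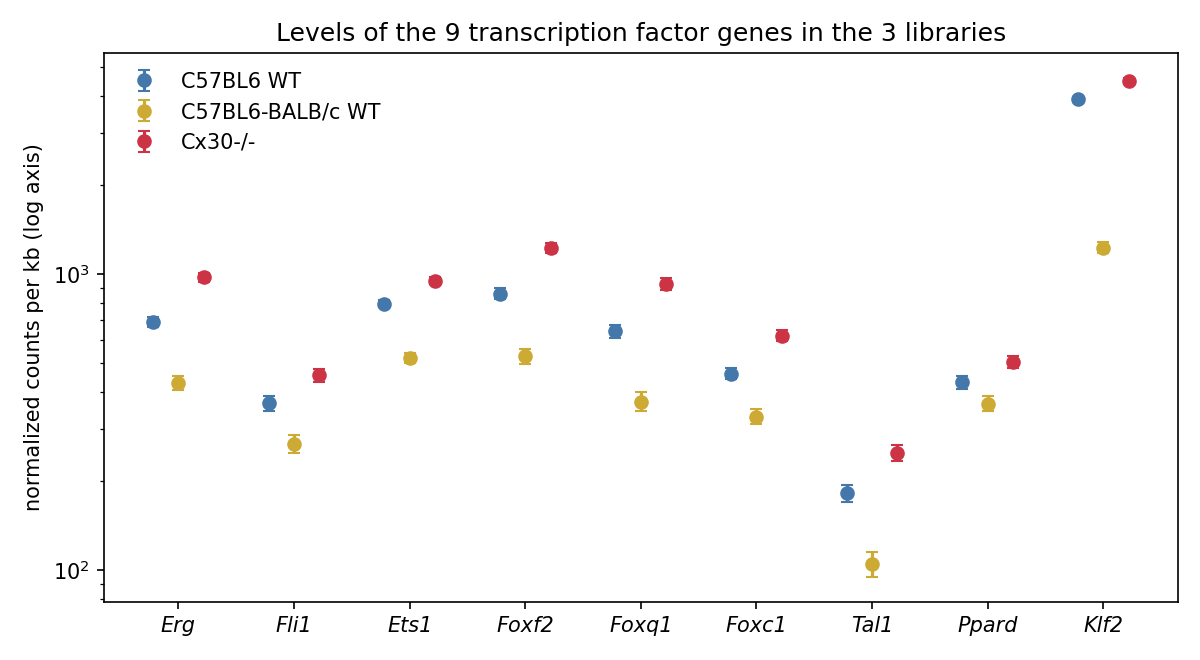
Normalized counts per kb of transcript (log axis) of the 9 genes in C57BL6 WT (blue), C57BL6-BALB/c WT (yellow) and Cx30-/- vessels (red), 1 library each, with exact 95% Poisson intervals of the counts. The red point is highest and the yellow point lowest for each gene, and Klf2 stands above the other genes in each library.

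Compared per kb of transcript, the most abundant of the 9 was Klf2, with 3887 normalized counts per kb in C57BL6 WT, 1226 in C57BL6-BALB/c WT and 4492 in Cx30-/- vessels. It lay above 99.0% of the 13980 genes with at least 50 normalized counts in every library in C57BL6 WT, and above 92.8% of them in C57BL6-BALB/c WT. Foxf2 came next in all libraries, with 859, 528 and 1224 normalized counts per kb in the same order of libraries. Tal1 was the least abundant, with 182, 105 and 249. In Cx30-/- vessels the counting intervals of Erg (974 per kb), Ets1 (951) and Foxq1 (925) overlapped from neighbour to neighbour, so that their order was not resolved. The same was true of Foxf2 and Ets1 in C57BL6-BALB/c WT, of Foxq1, Ppard and Foxc1 there, and of Erg with Foxq1 and Foxc1 with Ppard in C57BL6 WT.

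Among the ETS factors, Erg (ENSMUSG00000040732), which maintains endothelial junction and quiescence genes, gave 2307.0 normalized counts in C57BL6 WT, 1433.3 in C57BL6-BALB/c WT and 3259.4 in Cx30-/- vessels. The Cx30-/- library was above both WT libraries, by a log2 ratio of 0.50 (interval 0.42 to 0.57) against C57BL6 WT and of 1.19 (1.09 to 1.28) against C57BL6-BALB/c WT. Erg lies on chromosome 16 of GRCm38, from 95359169 to 95586593 on the minus strand. Its 3 transcript rows share exons and gave nearly the same ratios, from 0.50 to 0.54 and from 1.14 to 1.19. The row used, the one with the most counts, starts at an internal promoter, which is shown because Erg is the factor most closely tied to endothelium among the 9. The 250 bases upstream of the nearest RefSeq start, 103 bases from that of the row, are given 5′ to 3′ (GRCm38.p6, chr16:95459349-95459598, minus strand). Capitals mark an ETS motif, AGGAAG read from the other strand, at positions -40 to -35 from the start:

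Erg: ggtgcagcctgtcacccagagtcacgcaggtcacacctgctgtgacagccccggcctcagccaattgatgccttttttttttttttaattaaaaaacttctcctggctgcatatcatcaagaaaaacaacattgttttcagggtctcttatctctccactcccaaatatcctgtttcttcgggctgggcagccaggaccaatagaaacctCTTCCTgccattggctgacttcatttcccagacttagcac

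Fli1 (ENSMUSG00000016087), an ETS factor shared by endothelial cells, platelet precursors and other blood cells, gave 1136.9 normalized counts in C57BL6 WT, 830.6 in C57BL6-BALB/c WT and 1413.1 in Cx30-/- vessels. The Cx30-/- library was the highest, at log2 ratios of 0.31 (0.20 to 0.42) over C57BL6 WT and 0.77 (0.64 to 0.90) over C57BL6-BALB/c WT. Ets1 (ENSMUSG00000032035), which acts in vessel growth and in lymphocytes, gave 4018.5, 2635.5 and 4809.9 normalized counts in these libraries, with log2 ratios of 0.26 (0.20 to 0.32) and 0.87 (0.80 to 0.94). Both had smaller ratios than Erg in both comparisons, and for Ets1 the intervals did not overlap those of Erg. Fli1 (32422204 to 32542861, minus strand) and Ets1 (32636221 to 32757820, plus strand) are neighbours on chromosome 9, 93.4 kb apart. Of the genes to which deposited rows could be assigned, no other within 500 kb of the pair passed the count minimum in both comparisons. Over the 9 transcripts, reads covered from 81.9% of the bases (Foxc1 in C57BL6-BALB/c WT) to 99.6% (Fli1 in C57BL6 WT).

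Each forkhead factor was highest in Cx30-/- and lowest in C57BL6-BALB/c WT vessels. Foxf2 (ENSMUSG00000038402), a factor of brain endothelium and pericytes needed for the blood-brain barrier, gave 2030.2 normalized counts in C57BL6 WT, 1248.6 in C57BL6-BALB/c WT and 2892.2 in Cx30-/- vessels. Foxq1 (ENSMUSG00000038415), found in brain endothelium, had 1299.3, 751.8 and 1874.7. Foxc1 (ENSMUSG00000050295), which is needed for cerebral vessel and meningeal development, had 1841.6, 1317.7 and 2474.7.

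Against C57BL6 WT the log2 ratios were 0.51 (0.43 to 0.59) for Foxf2, 0.53 (0.43 to 0.63) for Foxq1 and 0.43 (0.34 to 0.51) for Foxc1, with overlapping intervals. Against C57BL6-BALB/c WT, Foxq1 (1.32, 1.19 to 1.45) and Foxf2 (1.21, 1.11 to 1.31) were past 2-fold, while Foxc1 (0.91, 0.81 to 1.01) was just below it. These genes form a cluster on the plus strand of chromosome 13, spanning 256 kb, with Foxq1 from 31556134 to 31560976, Foxf2 from 31625816 to 31631403 and Foxc1 from 31806633 to 31812476. Of the other genes with assigned rows within 500 kb, 1 passed the count minimum in both comparisons. It was Gmds, an enzyme of GDP-fucose synthesis, with log2 ratios of 0.09 and 0.43. The libraries were not stranded, so that reads of genes overlapping on opposite strands cannot be told apart. In GENCODE M21, the annotation used for positions, exons of Foxq1 and of the protein-coding gene A530084C06Rik on the other strand overlap by 3200 bases. The deposited Foxq1 row is shorter than that overlap, at 2026 bases, and its own overlap was not measured. The part of A530084C06Rik in its count was not tested. Foxf2 overlaps the miRNA gene Gm27516 by 98 bases.

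Tal1 (ENSMUSG00000028717; chromosome 4, 115056426 to 115071755, plus strand), a helix-loop-helix factor of endothelial and blood cell precursors, gave 767.6 normalized counts in C57BL6 WT, 441.8 in C57BL6-BALB/c WT and 1048.0 in Cx30-/- vessels. The Cx30-/- library was again the highest, with log2 ratios of 0.45 (0.32 to 0.58) and 1.25 (1.08 to 1.42). Since Tal1 is bound in a complex with Gata factors, the 250 bases before its RefSeq start, the start of the row used, are shown with a GATA motif in capitals (AGATAA, on the other strand), at positions -205 to -200 (GRCm38.p6, chr4:115056176-115056425, plus strand):

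Tal1: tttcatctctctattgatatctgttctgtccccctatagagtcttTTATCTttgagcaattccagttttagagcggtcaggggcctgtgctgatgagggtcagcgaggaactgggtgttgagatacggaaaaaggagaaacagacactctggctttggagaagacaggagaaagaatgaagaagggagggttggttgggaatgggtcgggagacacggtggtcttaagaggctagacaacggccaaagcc

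Tal1 and Fli1 are also made in blood cells, whose markers were highest in the same library. The 7 genes of an erythroid list summed to 2081 normalized counts in C57BL6 WT, 1009.9 in C57BL6-BALB/c WT and 4795 in Cx30-/- vessels. The 5 genes of a platelet and megakaryocyte list summed to 609, 486 and 1088 in the same order. The 7 genes of a neutrophil list summed to 478, 301 and 1480.2, with Ly6g at 0 counts in C57BL6 WT, 1 in C57BL6-BALB/c WT and 2 in Cx30-/- vessels. Gata1, the Gata factor of red cells and platelets, had 5, 0 and 7 counts, where a count of 0 allows up to 3 counts. Gata2, another Gata factor, gave 2275, 1924 and 3354 normalized counts in the same order of libraries. The part of blood cells in the levels of Tal1 and Fli1 was not tested.

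Ppard (ENSMUSG00000002250; chromosome 17, 28232700 to 28301474, plus strand) had the smallest ratios of the 9 in both comparisons that involve C57BL6-BALB/c WT. It gave 1381.4 normalized counts in C57BL6 WT, 1171.9 in C57BL6-BALB/c WT and 1618.7 in Cx30-/- vessels, with log2 ratios of 0.23 (0.13 to 0.33) over C57BL6 WT and 0.47 (0.35 to 0.58) over C57BL6-BALB/c WT. Of its 4 transcript rows, 3 had more than 3 counts in every library, and their ratios against C57BL6-BALB/c WT ran from 0.10 to 0.47.

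Klf2 (ENSMUSG00000055148; chromosome 8, 72319033 to 72321656, plus strand) departed from the rest. It gave 7179.6 normalized counts in C57BL6 WT and 8295.9 in Cx30-/- vessels, but 2263.9 in C57BL6-BALB/c WT. The Cx30-/- and C57BL6 WT libraries were thus close to each other, with a log2 ratio of 0.21 (0.16 to 0.25), the smallest of the 9 genes. Against C57BL6-BALB/c WT the Cx30-/- library was 3.66-fold higher (log2 ratio 1.87, 1.80 to 1.94), the largest ratio of the 9. Between the WT libraries Klf2 was at 0.32 times the C57BL6 level in C57BL6-BALB/c (log2 ratio -1.67, -1.73 to -1.60), below each of the 18 endothelial markers, whose ratios ran from -1.14 to -0.18. Only 0.32% of the 14783 genes compared between the WT libraries lay lower than Klf2.

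None (0) of 16 other Klf and flow-response genes was past 2-fold between the WT libraries. Klf4, the closest relative of Klf2 in endothelium, had a log2 ratio of -0.46 in C57BL6-BALB/c against C57BL6 WT, and Klf6 of -0.72. Nos3 (endothelial nitric oxide synthase) and Thbd (thrombomodulin), both known to be raised by Klf2, had -0.18 and -0.05. Mef2a, Mef2c and Mef2d lay between 0.02 and 0.22. Immediate early genes, which respond within minutes to handling and to signals, differed in both directions between the WT libraries. Of 10 such genes, Jun (-1.45), Dusp1 (-1.17) and Atf3 (-1.16) were at least 2-fold lower in C57BL6-BALB/c WT and Fosb (2.95) was at least 2-fold higher, with a median of -0.01 over the list. Their part in the Klf2 level was not tested.

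**Figure D2:**
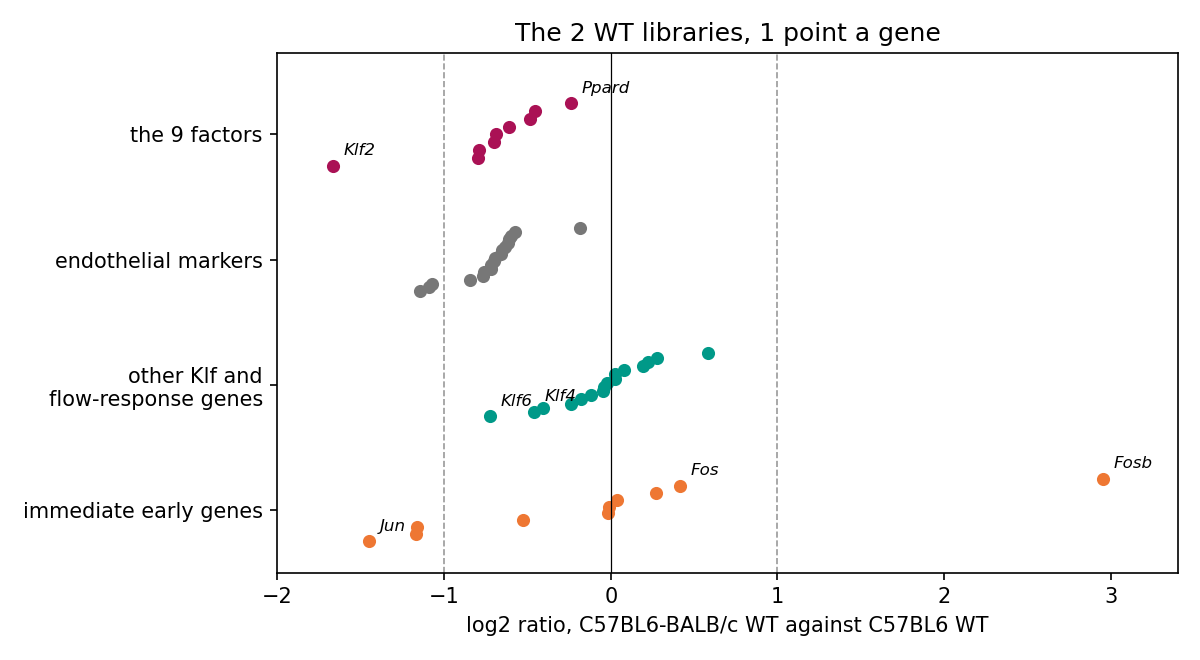
Log2 ratio of C57BL6-BALB/c WT against C57BL6 WT for the 9 factors, 18 endothelial markers, 16 other Klf and flow-response genes and 10 immediate early genes (1 point a gene, 1 library per group; dashed lines at 2-fold). Klf2 lies at -1.67, left of every endothelial marker, while immediate early genes run from -1.45 for Jun to 2.95 for Fosb.

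The Klf2 promoter is shown because its Mef2 motif is the known entry point of the flow signal. The motif lies at positions -118 to -109 from the RefSeq start (chromosome 8, 72318944 to 72318953) and is given in capitals within the 250 bases upstream of that start (GRCm38.p6, chr8:72318812-72319061, plus strand). The last 29 bases belong to the first exon of the row used:

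Klf2: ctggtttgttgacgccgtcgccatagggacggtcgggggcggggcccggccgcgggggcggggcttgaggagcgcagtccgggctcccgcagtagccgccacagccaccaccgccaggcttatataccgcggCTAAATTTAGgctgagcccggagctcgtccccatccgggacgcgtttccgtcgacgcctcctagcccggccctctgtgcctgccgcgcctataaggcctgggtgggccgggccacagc

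In windows of this length a Mef2 motif was present in 2.92% of 32851 RefSeq mouse promoters on either strand, and in 1 of the 6 members that the table held (Erg, Foxf2, Foxc1, Tal1, Ppard and Klf2). AGGAAG was present in 29.5% of all promoters and in Erg and Foxf2. CGGAAG, another ETS motif, was in 13.6% and in Ppard. AGATAA was in 9.99% and in Erg and Tal1, and CCACCC, bound by Klf factors, in 28.1% and in Foxf2 and Klf2. The forkhead motif TAAACA was in 12.03% of all promoters and in 0 of the 6. These motifs were searched on both strands, and a match describes letters, not binding.

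Under a selection modelled on that of the study, a ratio of at least 2 with at least 50 normalized counts in 1 of the libraries compared, 0 of the 9 genes were higher against C57BL6 WT, where 1.42% of all genes were. Against C57BL6-BALB/c WT, Erg, Foxf2, Foxq1, Tal1 and Klf2 were at least 2-fold higher, 5 of 9, where 3.95% of 14883 genes were. Scaled on the endothelial markers, this number was 0, and with the total count as the scale it was 6, with Foxc1 at a log2 ratio of 1.04. The share of all genes past 2-fold under those scales is not given here. At 1.5-fold, 8 of 9 were higher (all but Ppard), where 14.1% of genes were. Between the WT libraries, Klf2 alone of the 9 was at least 2-fold lower in C57BL6-BALB/c WT, where 2.02% of genes were, and at 1.5-fold 6 of 9 were lower, against 8.04% of genes. None (0 of 9) was past 2-fold in both comparisons, against 0.743% of genes.

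For a test across genes, edgeR's quasi-likelihood model set the Cx30-/- library against the pair of WT libraries pooled as controls. Its spread rests on the WT pair, which also differs in background. At an adjusted p under 0.05 (Benjamini-Hochberg) 0 of the 9 genes and 0.0512% of 17576 genes were called. Without adjustment, 5 of the 9 (Erg, Foxf2, Foxq1, Foxc1 and Tal1) had a p under 0.05 in edgeR, and 8.69% of all genes did. Foxq1 had the smallest adjusted p of the 9 in edgeR's quasi-likelihood test, 0.35, with a log2 ratio of 0.87 and an SE of 0.30. Ppard had the largest, 0.83, with a log2 ratio of 0.35 and an SE of 0.28. For Klf2 the log2 ratio was 0.82 with an SE of 0.46, and the adjusted p from edgeR was 0.68. With DESeq2, 0 of the 8 genes that received an adjusted p were called, and 3 of the 9 had an unadjusted p under 0.05, as did 3.77% of 22471 genes.

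The endothelial marker list followed the same order of libraries. Its 18 genes summed to 184719 normalized counts in C57BL6 WT, 111160.1 in C57BL6-BALB/c WT and 225863 in Cx30-/- vessels, with 0 markers at a count of 0. Their median log2 ratio was 0.23 against C57BL6 WT and 0.87 against C57BL6-BALB/c WT, and 7 of the 18 were at least 2-fold higher in the latter comparison. In bulk vessels, fewer endothelial cells and less RNA of these genes per cell cannot be told apart. Against C57BL6-BALB/c WT, 7 of the 9 factors lay inside the range of the markers (0.63 to 1.55). Klf2 lay above all 18 markers and Ppard below all 18. Ets1 differed from the marker median by -0.002 and Foxc1 by 0.04, while Foxq1 was 0.45, Tal1 0.38, Foxf2 0.34 and Erg 0.32 above it. Against C57BL6 WT all 9 lay inside the range of the markers (-0.03 to 0.71), with Foxq1 0.30, Foxf2 0.28 and Erg 0.27 above the median.

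**Figure D3:**
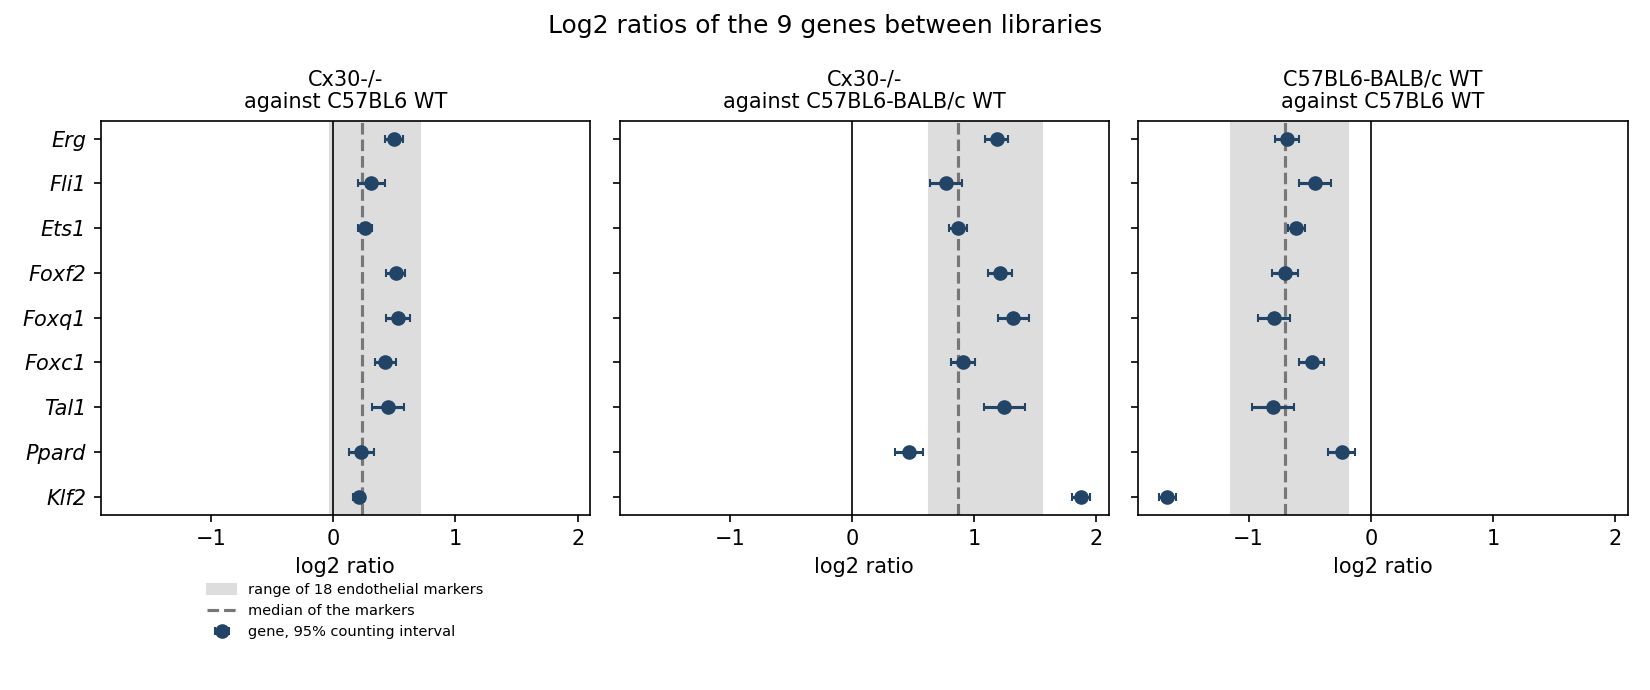
Log2 ratios of the 9 genes in the 3 comparisons with exact 95% counting intervals, on the same axis range. The grey band is the range and the dashed line the median of 18 endothelial markers. Klf2 falls outside the band in both comparisons with C57BL6-BALB/c WT and Ppard falls below it in the middle panel.

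Of the other cell types, pericyte, fibroblast and lymphocyte markers followed the order of the 9 factors in their sums. So did the erythroid, platelet and neutrophil lists given above. Smooth muscle and neuron markers were highest in C57BL6-BALB/c WT. The 9 pericyte markers, of interest because Foxf2 and Foxc1 are also made in pericytes, summed to 72828 normalized counts in C57BL6 WT, 47196 in C57BL6-BALB/c WT and 79766 in Cx30-/- vessels, with median log2 ratios of 0.13 and 0.64. The 6 fibroblast markers summed to 11100.3, 9193 and 13390.1. The 6 smooth muscle markers summed to 39579, 59399.9 and 53565 in that order. The 9 microglia and macrophage markers summed to 6563, 4539 and 6154, and the 6 lymphocyte markers found to 77.7, 70.2 and 122. The 8 neuron markers summed to 47133, 60805 and 32969, the reverse of the order of the factors, the 8 astrocyte markers, Gjb6 included, to 45521, 44183 and 35139, the 6 oligodendrocyte markers to 51136, 45368 and 40706, and the 5 choroid plexus markers to 145296, 56524 and 76384. The part of cell composition in the levels of the 9 genes was not tested.

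Genes that work with the 9 factors were read from lists of their families, partners and targets. None (0) of the genes of these lists that passed the minimum was at least 2-fold apart in the same direction in both comparisons. Over all genes, only 0.743% were at least 2-fold higher in Cx30-/- in both. Of 12 other endothelial transcription factors, the 11 that passed the minimum were all higher in Cx30-/- than in both WT libraries, with medians of 0.55 over C57BL6 WT and 0.73 over C57BL6-BALB/c WT. Epas1, the endothelial hypoxia-inducible factor, gave 13717 normalized counts in C57BL6 WT, 11579 in C57BL6-BALB/c WT and 17939 in Cx30-/- vessels. Sox18 had 2248, 2295 and 3101, and Sox17 had 2793, 2967 and 4931. Unlike the 9 factors, Sox17, Sox18 and Nr2f2, the factor of venous identity, were not lower in C57BL6-BALB/c than in C57BL6 WT (log2 ratios 0.09, 0.03 and 0.13). Hhex, a homeobox factor of endothelium, was the most distant of this list against C57BL6-BALB/c WT, with a log2 ratio of 2.32.

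The 12 genes known as targets of ETS factors were all higher in Cx30-/- than in C57BL6-BALB/c WT vessels, with a median log2 ratio of 0.84, and 10 of 12 were higher than in C57BL6 WT, with a median of 0.20. Of these targets, 10 are also in the endothelial marker list. Eng, a TGF-beta co-receptor, had 13458, 9030 and 15984 normalized counts in C57BL6 WT, C57BL6-BALB/c WT and Cx30-/- vessels.

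Other members of the ETS and forkhead families were mixed in direction. Of 15 other ETS factors, 8 were higher and 5 lower in Cx30-/- than in both WT libraries. Ets2 (log2 ratios 0.17 and 0.82) and Elk3 (0.26 and 0.92), the most abundant per kb in C57BL6 WT and Cx30-/- vessels but not in C57BL6-BALB/c WT, lay near the ratios of Ets1, while Elk1, a mediator of the serum response, was lower (-0.58 and -1.07). Of 19 other forkhead factors read, 12 were higher and 3 lower in both comparisons. Among the most abundant per kb was Foxj1, the factor of motile cilia (0.66 and 0.51).

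Partners of Tal1 ranged widely. Lmo2, the bridging subunit of the complex, had log2 ratios of 0.36 and 1.17, and Lyl1, the nearest relative of Tal1, of 0.73 and 1.30. Ldb1, which joins 2 complexes across DNA, had 0.10 and 0.01. The inhibitors Id1 (0.49 and 0.67) and Id3 (0.46 and 0.85), which hold helix-loop-helix factors off DNA, were the most abundant of this list per kb. Of the 11 genes that passed the minimum, 9 were higher in both comparisons and 0 lower in both.

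Of 16 other Klf and flow-response genes, 8 were higher and 3 lower in both comparisons, with medians of 0.11 and 0.03. For the 11 partners and targets of Ppard the medians were -0.02 and 0.01, and 4 were higher and 4 lower in both. Among the most abundant per kb was Rxrb (-0.04 and -0.11), a partner receptor. The 4 targets on the list were split. Plin2, a coat protein of lipid droplets, gave 534, 346 and 618 normalized counts in C57BL6 WT, C57BL6-BALB/c WT and Cx30-/- vessels, and Cpt1a, which brings fatty acids into mitochondria, gave 1288, 957 and 1354, both in the order of Ppard. Angptl4 and Pdk4, which act in lipid supply and in sparing of glucose, showed another order. Angptl4 gave 748 normalized counts in C57BL6 WT, 283 in C57BL6-BALB/c WT and 416 in Cx30-/- vessels, and Pdk4 had 765, 346 and 453. Both were thus lower in Cx30-/- than in C57BL6 WT, by log2 ratios of -0.85 and -0.76.

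**Figure D4:**
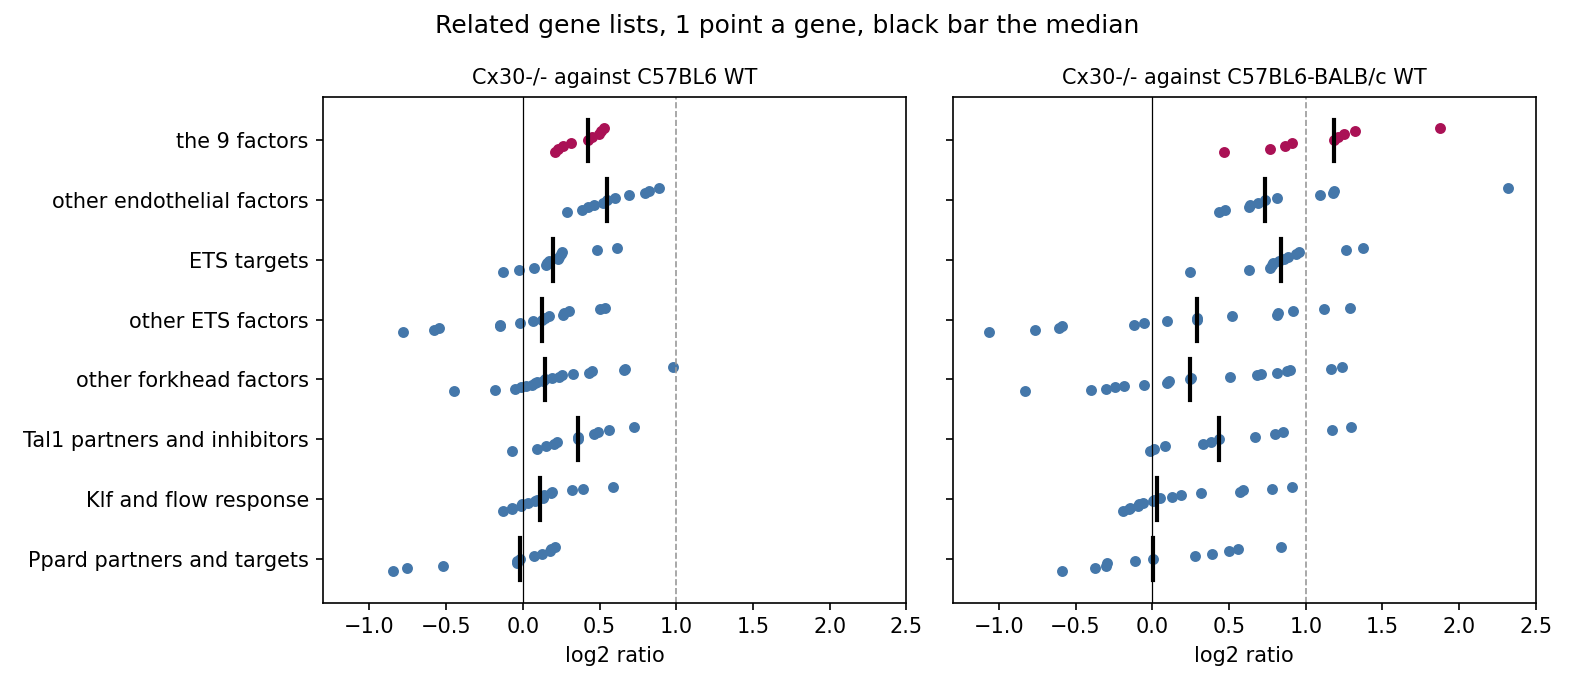
Log2 ratios of the Cx30-/- library against C57BL6 WT (left) and C57BL6-BALB/c WT (right) for the 9 factors and 7 related lists, 1 point a gene that passed the count minimum in both comparisons, black bars at the medians and a dashed line at 2-fold. The medians of the 9 factors are 0.43 and 1.19, against -0.02 and 0.01 for the partners and targets of Ppard.

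Likeness to Erg was measured as the distance between the pairs of log2 ratios against the WT libraries, over 3 libraries and 13979 genes. The 5 nearest genes were Gm15635, Ly75, Notumos, Foxf2 and Ushbp1, at distances of 0.02 to 0.03. Foxf2 was thus the member nearest to Erg. Tal1 followed at 0.08, with 28 genes nearer to Erg, and Foxq1 at 0.14, with 51. Ppard (0.77) and Klf2 (0.75) were the farthest, with 2149 and 2019 genes nearer. With 3 libraries the measure separates few patterns, and 38 genes lay within 0.1 of Erg.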

How the data were processed

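Polyadenylated RNA of isolated brain vessels was sequenced in 3 unstranded libraries of 50 base reads. According to the methods of the study, the authors trimmed and filtered reads with Eoulsan, aligned them with Bowtie and removed reads matching more than once. The submitters' processing notes name CASAVA 1.8.2 and mm10. The deposited tables list 82813 Ensembl transcripts, each with a raw count of alignments on its exons, a fraction (that count divided by the library's total) and the number of its bases that no read covered. GENCODE M21 (GRCm38), matched by identifier, named 83.8% of the rows. Only 1.57% of the named rows share their start with GENCODE M21, so positions are given from that annotation.

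Each gene took its row with the largest total count, so that a read on a shared exon counts for each row. Size factors were 1.15 (C57BL6 WT), 0.926 (C57BL6-BALB/c WT) and 0.953 (Cx30-/-). Ratios had no pseudocount, and their 95% intervals are exact conditional binomial (Clopper-Pearson, scipy 1.17.1). edgeR 4.0.16 (filterByExpr, TMM, R 4.3.3) was tested on simulated data. The SE given with its log2 ratios is the absolute log2 ratio divided by the square root of the F statistic. DESeq2 1.42.0 was an alternative.

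The members and lists were chosen with earlier results of these data known. Named genes are the 9 members, the 2 most abundant per kb of each related list (mean of the libraries), any list gene past 2-fold in both comparisons and the 5 nearest to Erg, of which 2 list genes are not reported here. Other list genes, Gmds and A530084C06Rik were named after their values were seen. RefSeq promoters were found for 6 of the 9 members.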

Additional observations from a re-analysis of the deposited data

How the results depend on the processing

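Of 270 values of single members under 10 alternatives, 226 stayed inside the counting interval of the reported value, 44 left it and 0 of the ratios past 2-fold changed sign. Of those 44, 27 belong to the scaling on endothelial markers, 13 to the total count and 4 to the total behind the fraction column. Scaled on endothelial markers, the medians of the 9 genes were 0.20 against C57BL6 WT, 0.30 against C57BL6-BALB/c WT and -0.029 between the WT libraries. Under it 0 genes were past 2-fold against C57BL6-BALB/c WT. Some smaller ratios changed sign, with 7 of the 9 genes higher in Cx30-/- than in C57BL6 WT. Against C57BL6-BALB/c WT 6 of 9 were higher in Cx30-/-, and 4 of 9 were higher in C57BL6-BALB/c than in C57BL6 WT. Shares of all genes under this scaling and under the total count are not given here. This scaling sets the marker list to no difference by construction. Under it Klf2 stayed at least 2-fold lower in C57BL6-BALB/c than in C57BL6 WT, at a log2 ratio of -1.01. The log2 ratio of Klf2 in Cx30-/- against C57BL6-BALB/c WT was then 0.99, just under 2-fold. With the total count the medians were 1.31 against C57BL6-BALB/c WT and -0.81 between the WT libraries, and Foxc1 joined the genes past 2-fold against C57BL6-BALB/c WT, 6 in place of 5. A threshold of 1.5-fold gave 8 genes against C57BL6-BALB/c WT (14.1% of all genes) and 6 between the WT libraries (8.04% of all genes). TMM, the upper quartile, a pseudocount of 1, other count minimums, the sum of rows and the longest row left each count and median of the 9 genes within those bounds.

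The number of members called by edgeR was 0 under each alternative, while all genes called were 9 as reported, 135 without the filter, 35 with RLE size factors and 11 with DESeq2. The smallest adjusted p of a member ranged from 0.146 (edgeR without the filter) to 0.62 (DESeq2). Leaving out a WT library leaves 0 residual degrees of freedom, and the ratios to each WT library stand in its place. No paired analysis was possible because each group has 1 library.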
